A study of Homo sapiens with 2 samples.

Results

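AZGP1, PI3, SLPI, LCN2, FXYD3, AARD, NUPR1 and MTLN, 8 of the 30796 genes measured, were followed in single cells of MDAMB468 and CAL51. Both are established human breast cancer cell lines of the triple-negative type, which lacks the estrogen receptor, the progesterone receptor and amplified HER2. The labels name no treatment and no engineered allele for either line. Each line was 1 Drop-seq library, in which cells are lysed in droplets with barcoded beads and each captured mRNA molecule is counted by its unique molecular identifier (UMI). The 8 genes were chosen by their measured UMIs, which lay almost wholly in MDAMB468. Their difference between the lines is therefore a description with no test, and a single library for each line allowed none for any other gene.

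Most of the products work at or outside the cell surface. AZGP1 is a secreted glycoprotein with the fold of an MHC class I heavy chain, made by many secretory epithelia, the breast among them. PI3 (elafin) and SLPI are secreted inhibitors of neutrophil elastase built from whey acidic protein domains, and LCN2 is a secreted lipocalin that binds bacterial siderophores. Epithelia under inflammatory signals are known to produce these protease inhibitors and LCN2. FXYD3 is a small single-pass membrane protein that modulates the sodium pump. MTLN (mitoregulin) is a microprotein of the inner mitochondrial membrane linked to fatty acid oxidation. NUPR1 is a small nuclear protein induced by stress, so the description as secreted or membrane genes does not cover it. AARD codes for a little-studied protein rich in alanine and arginine.

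A window upstream of LCN2 is shown because LCN2 is a textbook target of NF-kB and was uneven between cells. Of the 8 genes it had the highest excess variance, described below, while other members had higher Fano factors (variance over mean). The stretch below lies upstream of the RefSeq start of LCN2 at chr9:128149265-128149440 on the plus strand of GRCh38.p14 and is the longest part of that upstream window outside the GENCODE exons. Capitals mark matches to a loose NF-kB type motif (GGGA, any 4 bases, then CC) and to CCAAT, both searched on both strands.

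LCN2: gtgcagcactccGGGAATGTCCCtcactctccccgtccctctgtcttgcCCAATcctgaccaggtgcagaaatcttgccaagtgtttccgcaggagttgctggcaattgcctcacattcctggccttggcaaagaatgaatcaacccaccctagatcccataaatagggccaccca

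The first capitals hold GGGAATGTCC on the strand of the gene, from 176 to 167 bases before the start, overlapped by GGGACATTCC on the other strand. The NF-kB type motif occurred in 22.6% and CCAAT in 32.0% of 35116 upstream windows of 250 bases, so both are common. Nor were they particular to LCN2 among the members. The window of AZGP1 held GGGAGGAGCC, from 104 to 95 bases before the start, and CCAAT on the other strand. That of MTLN held CCAAT. The window of AZGP1 held 1 CpG, that of LCN2 4, that of FXYD3 8 and that of MTLN 19, against a median of 11. These 4 windows were the ones matched in the RefSeq table. By the gene spans of GENCODE release 29, which start further upstream, those of LCN2, FXYD3 and MTLN lie within the gene, that of MTLN wholly in exons, so they may not be the start used in these cells.

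Depth and barcode quality bear on every value below. MDAMB468 had 306 barcodes with 5501900 UMIs, and CAL51 had 1377 barcodes with 16358684 UMIs. Comparing barcode sequences showed 31 sequences under both line names. Those 31 CAL51-labelled barcodes, called copies here, were left out of CAL51, which leaves 1346 barcodes with 16223444 UMIs. In MDAMB468, 64 barcodes were satellites, meaning that they lay 1 base from another barcode of the line with at least 5 times their UMIs. Satellites entered the summed levels and were left out of all values per barcode, for which 242 MDAMB468 barcodes with a median of 14828.5 UMIs remained. The line markers were chosen with earlier results of these data known, so their match to the labels is a description and no check. In MDAMB468 and CAL51, 6 MDAMB468 markers summed to 3104 and 240 CPM (counts per 1000000 UMIs). The 6 CAL51 markers summed to 3.09 and 9450 CPM. Markers of immune cells summed to 1.09 and 0.493 CPM, and so did those of endothelial and red cells. Fibroblast markers summed to 12.4 and 3.45 CPM, with FAP at 45 and 0 UMIs, COL1A1 at 22 and 11, PDGFRB at 0 and 44 and DCN at 1 and 1, and their part in the results was not tested. All intervals are 95% intervals for counting error only and hold no variation between cultures.

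Among the secreted products, AZGP1 was the most abundant. It had 2687 UMIs in MDAMB468, a level of 488 CPM (interval 470.1 to 507), which ranked 288 among the 23850 genes with a UMI in that line. In CAL51 it had 2 UMIs in 2 barcodes, a level of 0.123 CPM (interval 0.0149 to 0.445). The ratio was 3962, with an interval of 1096 to 32729 that reflects the 2 CAL51 counts.

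The elastase inhibitors stood at similar levels in MDAMB468. PI3 had 944 UMIs (172 CPM, interval 161 to 183) and SLPI had 876 UMIs (159 CPM, interval 149 to 170.1), so their intervals overlapped. PI3 had 0 UMIs in CAL51 and was, against a floor of 3 counts in the library, at least 928-fold higher in MDAMB468. SLPI differed from it in CAL51, with 11 UMIs in 10 barcodes (0.678 CPM, interval 0.338 to 1.21) and a ratio of 235 (interval 131 to 472).

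LCN2 was the least abundant of the 8 genes. Its 264 UMIs in MDAMB468 gave 48.0 CPM (interval 42.4 to 54.1) and rank 3446, and with 0 UMIs in CAL51 it was at least 259-fold higher in MDAMB468.

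The membrane genes were both at 0 UMIs in CAL51, with MTLN below FXYD3 in MDAMB468. FXYD3 had 944 UMIs (172 CPM, interval 161 to 183), the same number as PI3, and was at least 928-fold higher in MDAMB468. MTLN had 454 UMIs (82.5 CPM, interval 75.1 to 90.5) and was at least 446-fold higher.

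AARD matched AZGP1 in abundance, and NUPR1 lay between MTLN and SLPI. AARD had 2625 UMIs (477 CPM, interval 459 to 496), an interval that overlapped that of AZGP1, and 0 UMIs in CAL51, for a bound of at least 2580-fold. NUPR1, with 544 UMIs in MDAMB468 (98.9 CPM, interval 90.7 to 108), had 9 UMIs in 8 CAL51 barcodes (0.555 CPM, interval 0.254 to 1.05) and a ratio of 178 (interval 93.2 to 392).

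**Figure D1:**
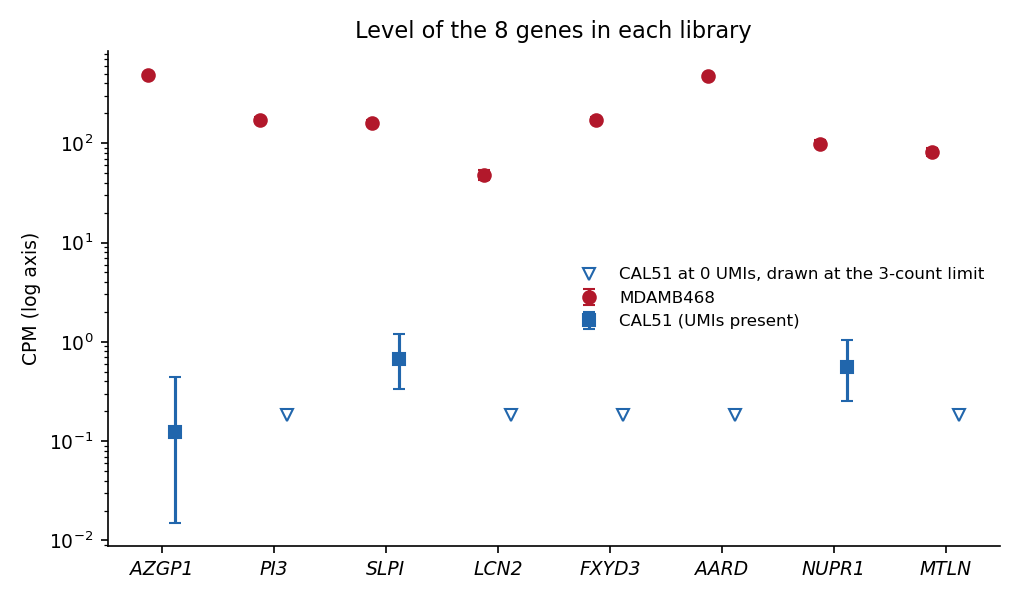
Level of each gene in CPM (log axis) in the MDAMB468 library (circles) and in the CAL51 library without the 31 copies (squares), with 95% Poisson intervals that are mostly narrower than the circles in MDAMB468. Open triangles stand for 0 CAL51 UMIs and are drawn at the limit of 3 counts, 0.185 CPM; the MDAMB468 levels run from 48.0 CPM for LCN2 to 488 CPM for AZGP1.

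The plot of levels shows the order in MDAMB468, in which AZGP1 and AARD, then PI3, FXYD3 and SLPI, were not separated by their counting intervals, while NUPR1, MTLN and LCN2 each stood below. UMIs are counted per molecule at the 3′ end, and these levels were not divided by gene length. On the scale of log2(CPM + 1), the difference of MDAMB468 minus CAL51 ran from 5.61 for LCN2 to 8.90 for AARD, with a median of 7.0 over the 8 genes and of -0.13 over the 15347 genes with at least 20 UMIs. Genes were called at least 8-fold higher or lower from the ratio of the CPM levels, with a count of 0 set to the floor of 3 counts. All 8 genes were at least 8-fold higher in MDAMB468, as were 6.48% of the genes tested, and that count restates how the genes were chosen.

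The few CAL51 UMIs were not spread over the 8 genes in proportion to their MDAMB468 levels. The CAL51 level was 0.426% of the MDAMB468 level for SLPI (interval 0.212% to 0.766%) and 0.561% for NUPR1 (interval 0.255% to 1.07%). For AZGP1 it was 0.0252% (interval 0.00306% to 0.0913%), and AARD had 0 UMIs. The intervals of SLPI and NUPR1 lay above that of AZGP1, the more abundant gene. After thinning each barcode to 2500 UMIs, 3 of 1339 CAL51 barcodes had an SLPI UMI (0.224%, interval 0.0462% to 0.653%) and 2 had a NUPR1 UMI (0.149%, interval 0.0181% to 0.539%). The other 6 genes had 0 of 1339, which allows a share of up to 0.224% by the floor of 3 counts and of up to 0.275% by the upper Clopper-Pearson bound.

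Barcodes differ widely in depth, so shares of MDAMB468 barcodes with a UMI were taken at equal depth. At 2500 UMIs, AZGP1 was seen in 173 of 242 barcodes (71.5%, interval 65.4% to 77.1%) and AARD in 161 (66.5%, interval 60.2% to 72.4%). FXYD3, PI3 and SLPI were seen in 36.0%, 34.3% and 31.4% of barcodes, NUPR1 and MTLN each in 17.8%, and LCN2 in 24 barcodes (9.92%, interval 6.46% to 14.4%). Without thinning the shares ran from 38.0% for LCN2 to 95.9% for AZGP1, at a median depth of 14828.5 UMIs. In CAL51 the unthinned shares were at most 0.747%, that of SLPI, at a median depth of 8660 UMIs.

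At 2500 UMIs these shares were close to those of an even level. The even level was taken as the gene's summed UMIs over the summed depth, so the deepest barcodes weighed most in it. If every barcode carried the same level, 70.9% would show AZGP1, 35.4% PI3 and 11.5% LCN2, and for all 8 genes this value lay within the interval of the observed share. Deeper barcodes separated the genes. At 10000 UMIs, which 153 barcodes reached, PI3 was seen in 66.0% of barcodes (interval 57.9% to 73.5%) against 82.6% for an even level. SLPI was seen in 69.3% (interval 61.3% to 76.5%) against 78.7%, LCN2 in 29.4% (interval 22.3% to 37.3%) against 39.1%, and AARD in 94.8% (interval 89.96% to 97.7%) against 99.1%. AZGP1 was also below its even level, at 96.7% (interval 92.5% to 98.9%) against 99.2%. For FXYD3 (77.8% against 82.9%), NUPR1 (61.4% against 63.7%) and MTLN (56.9% against 58.4%) the value for an even level lay within the interval. For LCN2 the 39.1% lay just above the interval's upper end of 37.3%, so its gap may depend on the weighting by depth.

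The levels cell by cell were taken from the 91 barcodes that reached 20000 UMIs. AZGP1 ran from 67.9 to 1052 CPM per barcode with a median of 479, and AARD from 0 to 1068 CPM with a median of 449; AZGP1 and FXYD3 were the genes seen in all 91 barcodes. FXYD3 ran from 32.1 to 355 CPM with a median of 171 CPM. PI3 was at 0 in 8 of these barcodes and had a median of 143 CPM, a 90th percentile of 367 CPM and a highest value of 1048 CPM. SLPI was at 0 in 10 barcodes, with a median of 111 CPM and a highest value of 789 CPM.

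LCN2 was at 0 in 34 of the 91 barcodes, with a median of 33.3 CPM, a 90th percentile of 109 CPM and a highest value of 349 CPM. NUPR1 was at 0 in 7 barcodes and MTLN in 13, with medians of 88.0 and 83.9 CPM and highest values of 333 and 263 CPM. The 90th percentile stood at 3.28 times the median for LCN2, 2.57 times for PI3 and 2.40 times for SLPI, and between 1.52 and 2.05 times for the other 5 genes. Over all 242 barcodes, the 25 with the most LCN2 UMIs held 63.3% of them, while for the other 7 genes the 25 highest barcodes held 37.7% to 46.5%.

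**Figure D2:**
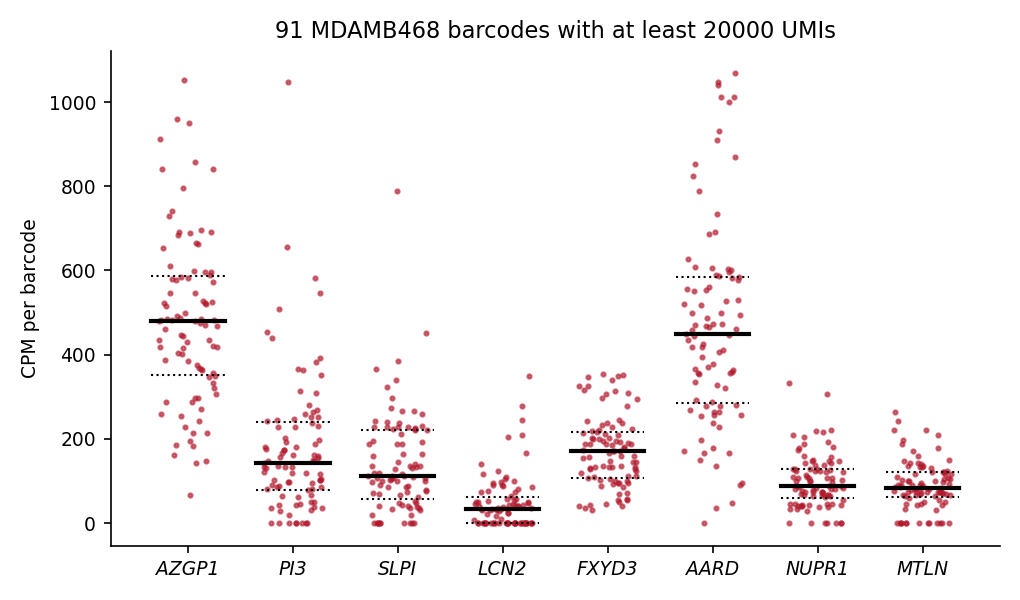
Each point is 1 of the 91 deepest MDAMB468 barcodes (20000 UMIs or more, satellites left out), placed by its level of the gene in CPM; points are spread sideways at random. Thick lines are medians and dotted lines quartiles, and LCN2 has 34 barcodes at 0 while AZGP1 and FXYD3 have none.

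Variation between barcodes was then set against counting error. The excess variance is the variance beyond that of Poisson counting at each barcode's own depth, divided by the squared mean, and it is 0 for an even level. It was 1.42 for LCN2, 0.782 for PI3 and 0.306 for SLPI. Genes within 1.5 times of the same level had medians of 0.123 (2263 genes, 98.4% of them below LCN2), 0.0577 (862 genes, 98.5% below PI3) and 0.0614 (958 genes, 94.1% below SLPI). These genes shared the library and the barcodes, and the percentages are a description.

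Part of this rested on few barcodes. Without the barcode with the most UMIs of the gene, which held 24 LCN2 UMIs (9.09% of its total) or 72 PI3 UMIs (7.63%), the excess variance fell to 0.887 for LCN2 and 0.343 for PI3. SLPI went to 0.259. AARD had 0.118 (0.121 without its top barcode), AZGP1 0.0736 and FXYD3 0.113, with 89.3%, 83.2% and 78.3% of genes of like level below them. NUPR1 (0.0939, and 0.0282 without its top barcode) and MTLN (0.0538) were near the medians of genes of like level, 0.0790 and 0.0874.

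**Figure D3:**
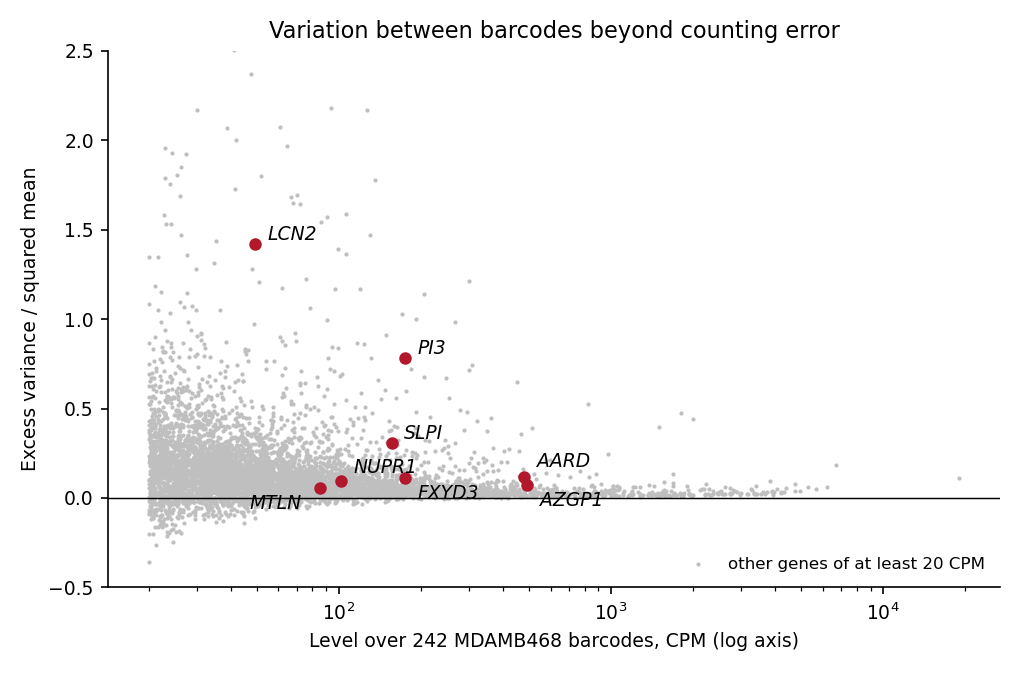
Excess variance between barcodes divided by the squared mean, plotted against the level over 242 MDAMB468 barcodes in CPM (log axis), for 6202 genes of at least 20 CPM (grey, 37 of them above the plotted range) and the 8 genes (red). LCN2 at 1.42 and PI3 at 0.782 lie above most genes of their level, and MTLN at 0.0538 lies within them.

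In 1 random draw, Fano factors (variance over mean) of counts thinned to 2500 UMIs showed this for SLPI and AARD. These stood above 97.0% and 89.7% of genes of like mean, while LCN2 and PI3 stood above 63.3% and 47.7%. The Fano factors were 1.05 for LCN2, 1.06 for PI3, 1.44 for SLPI, 1.34 for AARD and 1.17 for AZGP1. FXYD3 had 1.10, NUPR1 0.980 and MTLN 0.944, where an even level gives about 1. Another random draw moved that of MTLN to 1.25, that of SLPI to 1.23 and that of PI3 to 1.24. As the mean of 20 draws PI3 had 1.22, above 77.3% of genes of like mean, and LCN2 1.14, above 69.0%. At 10000 UMIs, as the mean of 20 draws, the Fano factor was 2.40 for AARD, 1.95 for PI3, 1.65 for AZGP1, 1.63 for SLPI and 1.54 for LCN2, against medians of 1.09 to 1.23 for genes of like mean. FXYD3 (1.15), NUPR1 (1.11) and MTLN (1.02) stayed at or below theirs, 1.16, 1.13 and 1.12.

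The 8 genes shared a line but hardly varied together within it at low depth. Over 242 barcodes thinned to 2500 UMIs, Pearson's r of log counts ran from -0.15 to 0.17 over the 28 pairs with a median of 0.01, where 7386246 pairs of 3844 genes had a median of -0.00 and 95% of them lay between -0.12 and 0.13. Those 3844 genes were not matched in level to the members. The barcodes share 1 library and 1 thinned depth, and r is given without a p.

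At greater depth most pairs were weakly positive, and PI3 with SLPI was the highest. Of the 28 pairs 23 were positive at 10000 UMIs, with a median of 0.05 against 0.00 for all pairs of 6166 genes, and 6 lay above the range from -0.10 to 0.10 that held 95% of those pairs. The r of PI3 and SLPI was 0.07 at 2500 UMIs in 242 barcodes. At 10000 UMIs in 153 barcodes, as the mean of 20 draws, it was 0.31, the highest of the 28 pairs, and 0.29 without the barcode with the most PI3 UMIs; 1 in 1000 of 19006695 gene pairs exceeded 0.18 in the same measure. The 6166 genes had a mean of at least 0.2 thinned UMIs and were not matched in level to PI3 and SLPI or to the other members. In the rankings of PI3 and of SLPI the other one came first. The next pairs were AZGP1 with FXYD3 at 0.16 and AZGP1 with SLPI at 0.14, and the lowest was FXYD3 with AARD at -0.12. LCN2 stood at 0.07 with PI3 and 0.04 with SLPI.

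**Figure D4:**
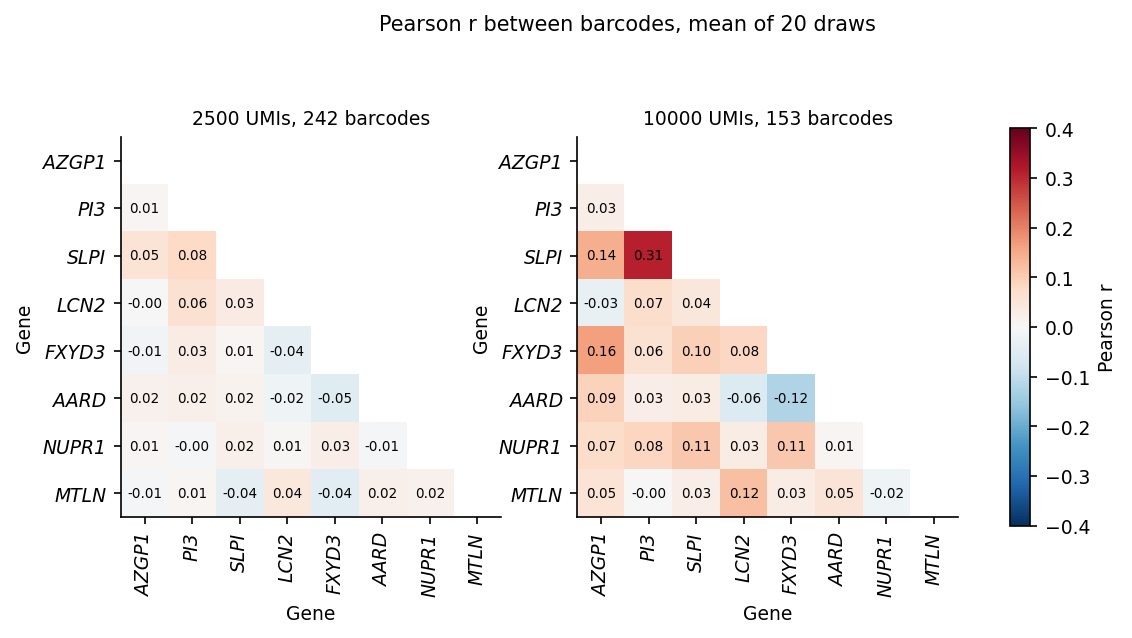
Pearson's r of log(1 + count) between MDAMB468 barcodes for each pair of the 8 genes, as the mean of 20 random draws, after thinning to 2500 UMIs (left, 242 barcodes) or 10000 UMIs (right, 153 barcodes). Red is positive and blue negative; PI3 with SLPI is the darkest cell on the right, at 0.31.

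Few partners outside the list recurred between draws at 2500 UMIs. The 3 genes most correlated with each member, 24 in all, had r between 0.20 and 0.30, and 2 of the 24 were among the 100 highest in another random draw. These were PSMG1, a proteasome assembly chaperone, with AZGP1 (0.20, then 0.17) and CDC5L, a splicing factor, with AARD (0.23, then 0.15). The highest, TCF7L1 with NUPR1 at 0.30, gave -0.03 in the other draw. WFDC21P, a pseudogene of the whey acidic protein family, led for LCN2 at 0.23 and gave 0.06.

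PI3 and SLPI are also neighbours in the genome. On GRCh38 (GENCODE release 29) PI3 (ENSG00000124102) lies on chromosome 20 from 45174876 to 45176544 on the plus strand, and SLPI (ENSG00000124107) from 45252239 to 45254564 on the minus strand, 75.7 kb apart. SDC4, a syndecan of the cell surface, was the highest of the other genes starting within 250 kb of either, with a log2 difference of 2.54, and none of those was 8-fold higher in either line.

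The other members lie on separate chromosomes. AZGP1 (ENSG00000160862) lies on chromosome 7 (99966720 to 99976157, minus strand), LCN2 (ENSG00000148346) on chromosome 9 (128149071 to 128153455, plus), and FXYD3 (ENSG00000089356) on chromosome 19 (35115879 to 35124324, plus). NUPR1 (ENSG00000176046) lies on chromosome 16 (28532708 to 28539174, minus), MTLN (ENSG00000175701) on chromosome 2 (110211529 to 110245420, minus), and AARD (ENSG00000205002) on chromosome 8. All 8 are protein-coding genes in that release. Of 58 distinct genes with at least 20 UMIs starting within 250 kb of a member, 3 were at least 8-fold higher in MDAMB468, against 6.48% of all genes, and 1 was at least 8-fold lower. Their median log2 difference was 0.24. Around AZGP1 (13 genes), LCN2 (18), NUPR1 (8) and AARD (4) no neighbour was 8-fold higher in MDAMB468. FXYD5, next to FXYD3, and MALL, next to MTLN, were the highest neighbours, at 4.80 and 4.02.

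Cell cycle phase was called from 43 S phase and 54 G2 and M phase genes, none of them a member. FXYD3 stood at 219 CPM in 42 barcodes called G1 (interval 188 to 254), 189 CPM in 98 called S (interval 169 to 210.1) and 155 CPM in 102 called G2M (interval 141 to 171), so that the G1 and G2M intervals did not overlap. Among barcodes above the median depth FXYD3 was at 244 CPM in G1 (interval 206 to 286; 17 barcodes) and 161 CPM in G2M (interval 145 to 178; 57 barcodes). AARD was at 540 CPM in G1 (interval 490.0 to 593), 530 in S (interval 496 to 565) and 434 in G2M (interval 410 to 459). Above the median depth its G1 interval of 452 to 567 CPM overlapped that of G2M, 406 to 459, while that of S, 473 to 549.9, did not. PI3 was lower in G2M (156 CPM, interval 141 to 171) than in S (202 CPM, interval 181 to 224), and above the median depth these levels were 160.0 CPM (interval 144 to 177) and 209 CPM (interval 186 to 235). The intervals of AZGP1, SLPI, LCN2, NUPR1 and MTLN overlapped between all phases. G2M barcodes were the deepest, with a median of 17309 UMIs against 12160 in G1, and cell-to-cell variation is outside these intervals.

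Levels in shallow and deep barcodes were set side by side. AARD was at 551 CPM (interval 470.1 to 642) in the 61 shallowest barcodes, of 2515 to 7550 UMIs, and at 447 CPM (interval 424 to 471) in the 61 deepest, of 26221 to 134213 UMIs, and these intervals just overlapped. LCN2 had 16.8 CPM (5 UMIs, interval 5.46 to 39.2) in the shallowest and 55.0 CPM (interval 47.1 to 63.8) in the deepest set, and MTLN 43.7 CPM (interval 23.3 to 74.7) and 91.4 CPM (interval 81.1 to 103). The intervals of LCN2 and MTLN did not overlap between these sets, those of the other 6 genes did, and the part of depth was not tested.

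Members behaved unequally in the small barcodes set aside above. In the 64 satellites SLPI was at 222 CPM (48 UMIs), 1.42 times its level in the other 242 MDAMB468 barcodes (interval 1.04 to 1.90). AZGP1 was at 0.751 times (interval 0.594 to 0.939) and AARD at 0.780 times (interval 0.617 to 0.973). FXYD3, with 15 UMIs, was at 0.395 times (interval 0.220 to 0.656), NUPR1, with 5 UMIs, at 0.227 times (interval 0.0735 to 0.533) and MTLN, with 3 UMIs, at 0.163 times (interval 0.0335 to 0.479). Over the 2153 genes of at least 80 CPM the median ratio was 1.02 and 95% of them lay between 0.326 and 1.70, so NUPR1 and MTLN were below that range.

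The copies labelled CAL51 showed a like order against the 31 MDAMB468 barcodes of the same sequence. SLPI was at 0.815 times (interval 0.478 to 1.31), AARD at 0.610 times (interval 0.429 to 0.844), AZGP1 at 0.515 times (interval 0.355 to 0.725) and PI3 at 0.405 times (interval 0.193 to 0.753). FXYD3 had 2 UMIs in the copies against 411 in the partners, 0.0785 times (interval 0.00947 to 0.285), and MTLN 1 against 208, 0.0775 times (interval 0.00195 to 0.437). The median over 2223 genes was 0.907, with 95% between 0.195 and 2.35. The 31 partners are among the large barcodes of both comparisons, and the cause of the unequal ratios was not tested.

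**Figure D5:**
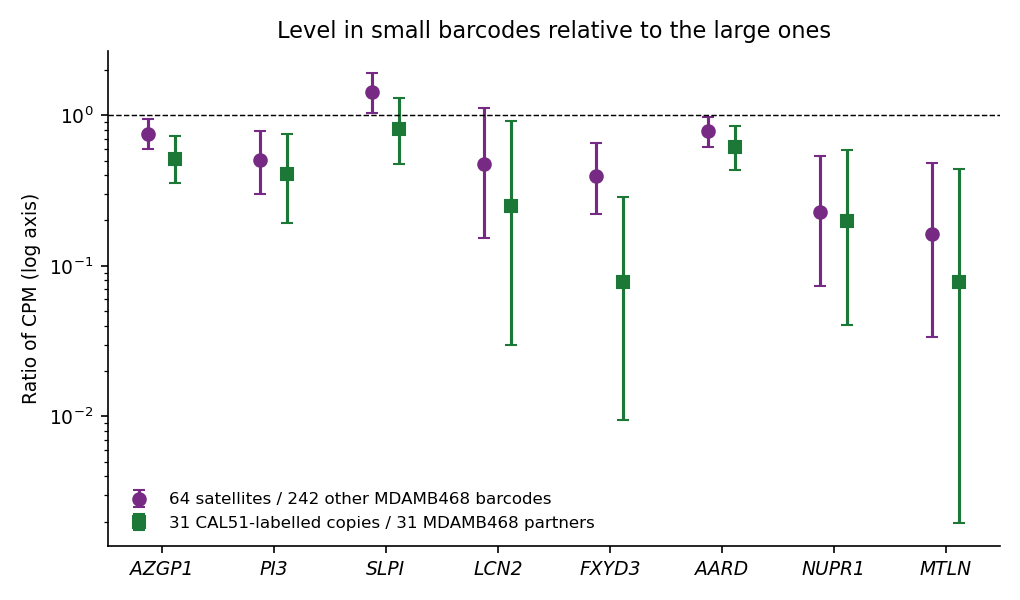
Ratio of the level (CPM, log axis) of each gene in small barcodes to that in large ones, for 64 satellites against the other 242 MDAMB468 barcodes (circles) and for the 31 CAL51-labelled copies against their 31 MDAMB468 partners (squares), with exact 95% counting intervals. SLPI, AZGP1 and AARD lie nearest the dashed line of equal level, and MTLN is lowest in both, at 0.163 and 0.0775.

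Counting the copies as CAL51 cells changed the log2 difference most for AARD and AZGP1, the most abundant members. The copies held 38 of 38 AARD UMIs under the CAL51 name, 34 of 36 AZGP1 UMIs and 18 of 29 SLPI UMIs, but 3 of 12 NUPR1 UMIs. With the copies kept, the log2 difference of AARD went from 8.90 to 7.17 and that of AZGP1 from 8.77 to 7.26. Abundance did not order the other genes. PI3 went from 7.43 to 6.74, and FXYD3, equal to PI3 in MDAMB468, from 7.43 to 7.26.

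Other genes of the members' families and pathways were counted from lists chosen with earlier results of these data known, among genes with at least 20 UMIs. Either line alone can fill that minimum, so the counts of every list are a description. Of the family around PI3 and SLPI, WFDC1, WFDC2 and WFDC3 were barely detected, with at most 7 UMIs in either line. Of the Kunitz inhibitors listed with them, SPINT1 had a ratio of 14.6 (interval 9.18 to 24.3) and SPINT2 had a log2 difference of -0.00. Of 8 further protease inhibitors, 2 were at least 8-fold higher and 1 lower in MDAMB468, the extremes being CST6 (28 and 0 UMIs, at least 27.5-fold higher) and CST3, or cystatin C (1 and 4292 UMIs). Shares of all genes past that fold were 6.48% higher and 4.97% lower.

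Most secreted antimicrobial genes with enough UMIs were higher in MDAMB468. Of 19 antimicrobial and mucosal genes listed, 10 had at least 20 UMIs over both lines, a minimum that MDAMB468 alone can fill. Of these 10, 9 were at least 8-fold higher in MDAMB468, against 6.48% of all genes, and none was 8-fold lower. Their median log2 difference was 3.56. The list was chosen with earlier results of these data known, so the count is a description. S100A9, a calcium-binding alarmin, was highest (1642 and 0 UMIs, 298 CPM in MDAMB468, at least 1614-fold), and CLU, the chaperone clusterin, lowest (-2.29). In a list of lipocalins and related lipid carriers 1 of 6 genes was 8-fold higher, CRABP2 (5602 and 57 UMIs, ratio 290, interval 223 to 383). Lower by that fold were 2, with FABP5 at 3 and 3465 UMIs the lowest. CRABP2 and FABP5 are intracellular carriers of retinoic acid and fatty acids, outside the lipocalin family proper. None of the lipocalins tested was 8-fold higher.

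The families of FXYD3 and AZGP1 were mostly within 8-fold between the lines. Of 6 FXYD and sodium pump genes, FXYD5 alone was 8-fold higher (1053 and 96 UMIs, ratio 32.3, interval 26.2 to 40.3), and the median log2 difference was -0.28. Of 12 MHC class I fold genes, 2 were 8-fold higher and 2 lower, from HLA-F (188 and 2 UMIs) to PROCR (6 and 1225 UMIs), with a median of 1.55; HLA genes are close paralogs whose reads the counting may have split.

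Nearly all genes listed for the pathways of NUPR1 and MTLN were within 8-fold between the lines. Of all genes 6.48% were higher and 4.97% lower by that fold. Smaller differences went both ways, with 7 of 14 and 5 of 12 genes higher in MDAMB468. Of 14 amino acid and ER stress genes 1 was 8-fold higher, ATF3 (13.5-fold, interval 10.1 to 18.3), with CHAC1 lowest at -1.39 and a median of 0.03. Of 12 genes of mitochondrial fatty acid oxidation none was past 8-fold. They ran from ACAA2 (-1.90) to HADHA (1.21), a subunit of the trifunctional enzyme with which MTLN is known to associate.

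Transcripts of genes that respond to signals known to act on LCN2, PI3 and SLPI were counted last, with epithelial and secretory genes. Any part of such signals in the members was not tested. MDAMB468 alone can fill the minimum of 20 UMIs over both lines, as for PROM1 (282 and 0 UMIs). The counts below are therefore a description. Of 13 NF-kB and IL-1 response genes 5 were 8-fold higher and none lower, with a median of 1.74. Of all genes 6.48% were higher and 4.97% lower by that fold. Some of the 5 calls had counting intervals that reached below 8-fold. CXCL3, a neutrophil chemokine, was highest (147 and 9 UMIs, ratio 48.2, interval 24.7 to 107) and NFKB2 lowest (-0.76), and NFKBIA, the feedback inhibitor, was at 0.08. Of 12 luminal progenitor and epithelial factors 7 were 8-fold higher and 1 lower, from SOX9 (729 and 3 UMIs) to SORBS2 (-3.98). Of 5 apocrine and luminal secretory genes 2 were 8-fold higher and 2 lower, with SPDEF (68 and 0 UMIs) highest and AGR2 (113 and 6158 UMIs, 18.5-fold lower in MDAMB468, interval 15.3 to 22.5) lowest. The median of that secretory list, of which 5 of 12 genes had at least 20 UMIs, was -0.62.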

How the data were processed

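The authors deposited 1 matrix of UMI counts, in whole numbers, with no normalisation visible in the values. The submitters' processing notes name STARsolo. Genome build, annotation, use of strand and selection of barcodes were not given in the sources used here. Each barcode was assigned to its library by the prefix of its name. Symbols came from a gene name table (all 8 members matched), positions from GENCODE release 29 on GRCh38 and upstream sequences from RefSeq on GRCh38.p14.

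Counts were summed per line as CPM, and differences used log2(CPM + 1), which understates those of low genes. Poisson, Clopper-Pearson and conditional ratio intervals are exact. Thinning drew 2500 UMIs per barcode without replacement (seed 1), and scanpy 1.11.5 called phases on the thinned counts. No doublet caller was run. edgeR 4.0.16 (R 4.3.3) gave TMM factors only. Other steps used scipy 1.17.1, numpy 2.4.6 and pandas 2.3.3 under Python 3.11.15, with figures from matplotlib 3.10.9. Functions were tested on simulated data.

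The members and lists were chosen with earlier results of these data known. Named genes are the members, the extremes of each list among genes with at least 20 UMIs, and the 3 genes most correlated with each member among genes with a symbol and a mean of at least 0.1 thinned UMIs. The WFDC genes, NFKBIA, the named neighbours and the genes of the closing section were picked after their values were seen. Alternatives covered pseudocount, scaling, shared and satellite barcodes, depth, draws and the leading barcode. Thinning to 10000 UMIs, means of 20 draws and the excess variance were added after the data had been seen.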

Additional observations from a re-analysis of the deposited data

Results flagged for a closer look

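The 31 CAL51-labelled copies are outside the comparison of the lines, and 4 of the 8 genes stood there above the limit that a count of 0 allows, 22.2 CPM. AARD was at 281 CPM, AZGP1 at 251 CPM, SLPI at 133 CPM and PI3 at 73.9 CPM. In the other CAL51 barcodes the highest of these levels was 0.678 CPM, that of SLPI.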

How the results depend on the processing

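All 8 genes kept a positive log2 difference in every setting run. Counted on the log2 difference, the number at least 8-fold higher was 8 in each, except 7 with a pseudocount of 10 CPM, which took LCN2 to 2.54. The median log2 difference of 7.0 became 10.22 with a pseudocount of 0.1 CPM, 4.08 with 10 CPM, 7.31 with totals without mitochondrial and ribosomal protein genes and 6.52 with shared barcodes kept. TMM and median of ratios factors shifted the median of all genes by -0.12 and -0.13. The share of genes at least 8-fold higher, 6.48%, was 3.66% with a minimum of 100 UMIs. The median share of barcodes with a UMI, 32.9%, was 15.5%, 49.3% and 67.6% at 1000, 5000 and 10000 UMIs and 73.8% unthinned. The median Fano factor of 1.08 was 1.36 at 5000 UMIs, 1.68 at 10000 UMIs and 1.59 there as the mean of 20 draws. The share with a UMI grows with depth by construction, and the Fano factor of MTLN did not grow (1.01 at 2500 and 1.02 at 10000 UMIs, means of 20 draws). The median r of the 28 pairs stayed between -0.01 and 0.08. No paired analysis was possible because each line has 1 library. With 1 library per line, culture and library preparation cannot be told apart from the line.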

Other observations

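Partners outside the list were also ranked at 10000 UMIs in 153 MDAMB468 barcodes, as the mean of 20 draws, a setting chosen after the data had been seen. LCN2 ranked first with S100A7 (r = 0.34), S100A8 (0.31) and S100A9 (0.30), secreted alarmins of stressed epithelia, followed by TNFAIP2 (0.29) and IFIT1 (0.28). S100A7 had 251 UMIs, S100A8 597 and S100A9 1642 in MDAMB468, and all 3 had 0 in CAL51. After SLPI, PI3 ranked highest with the interferon-response genes IFIT2 (0.22) and ISG15 (0.19), and SLPI after PI3 with S100A8 (0.23). SAT1, an enzyme of polyamine breakdown, came first for both AZGP1 (0.30) and FXYD3 (0.28). AARD reached 0.20 with YBX1, NUPR1 0.19 with IFITM3 and MTLN 0.16 with FAF2, each the highest of the genes ranked; 1 in 1000 of the pairs among 6166 genes with a mean of at least 0.2 thinned UMIs exceeded 0.18, which does not mark out a highest partner. These values rest on 1 library and sparse counts and carry no p. For LCN2, 1 barcode held 24 of its 264 UMIs (9.09%), and its r values were not repeated without that barcode.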
